A study of Caenorhabditis elegans with 2 samples.

Results

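Upstream promoter peaks are places where the HMG-box protein HMG-1.2 was recovered some way before the annotated start of a gene. A peak was taken as one of them when its summit lay 250 to 500 bp upstream of its nearest annotated protein-coding 5′ end. A summit was left out when 5′ ends on both strands had it within the window from 500 bp before to 100 bp after them, since such summits sit between divergent genes. Of the 4149 peaks in the authors' conservative list, 496 met this rule (11.95%), and they pointed to 490 of 19973 protein-coding genes. Another 838 peaks lay nearer to the 5′ end of a single gene, less than 250 bp upstream or up to 100 bp downstream, and are called core promoter peaks here, and 325 lay at divergent promoters.

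The peaks come from chromatin immunoprecipitation with sequencing (ChIP-seq), which recovers the DNA that a protein is attached to in fixed tissue. Both samples were whole young adult Caenorhabditis elegans at 65 h, from strain RW12210, which carries the allele st12210. In it, hmg-1.2 on chromosome III is fused to TY1, EGFP and 3xFLAG. CRISPR was used to put the tag into the gene, so both samples carry it, and no untagged or otherwise different group was analysed here. Eggs from bleached adults were hatched without food and arrested as L1 larvae, which brings a culture to 1 stage. The description names an antibody against GFP, whereas the antibody field names hmg-1.2. Whole animals were used, so the tissues in which the protein was bound cannot be told apart. There was 1 group with replicates 1 and 2, the labels do not say whether these were separate cultures, and the read depth behind the lists is unknown. All coordinates are on the ce11 (WBcel235) build.

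HMG-box proteins bind DNA in the minor groove and bend it, mostly with little preference for sequence, and HMG-1.2 belongs to the abundant HMGB type that is found along chromatin. In C. elegans the start of a mature message is often not the place where transcription began. The nuclear machinery replaces the first part of many transcripts, the outron, with a short spliced leader. It does so at an acceptor site that resembles the end of an intron and reads TTTCAG in its consensus. An annotated 5′ end that directly follows AG can therefore be a trans-splice site, with the transcription start further upstream. The ends used here are annotated ones, and starts of transcription were not measured in these samples.

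The bases in front of the annotated ends carry the main result. Below are the 30 bases before the 5′ end of 8 genes that the peaks pointed to, on the gene's strand, with the last 6 bases in capitals. The first 6 genes end in AG and the last 2, shown for contrast, do not.
mog-4, chrII:14561600-14561629, minus strand: caattttcctgtaattatccaactTTCCAG
lin-36, chrIII:8020874-8020903, minus strand: aaaggcttttccaaaaatatttgaTTGCAG
rpl-29, chrIV:13882195-13882224, plus strand: catttttctatcacaactcgtcatTTTCAG
rpl-3, chrIII:3867824-3867853, plus strand: taattttttcgtaaaattaatattTTTCAG
C18F10.7, chrIII:6278352-6278381, minus strand: ttctgattagcaatatttcgaaatTTTCAG
cox-5A, chrIII:12905461-12905490, plus strand: ttttctcatcttaaagctcattgtTTTCAG
crh-1, chrIII:11657737-11657766, plus strand: ggcctttttgcacaccaaaacgagTATAAA
wip-1, chrIII:5018609-5018638, plus strand: aagcgctcatacttccttaactttTCACTC
The genes mog-4, an RNA helicase of the switch from sperm to oocytes, and lin-36, a regulator that acts with the DREAM complex, end in TTCCAG and TTGCAG. The ribosomal protein genes rpl-29 and rpl-3, the unnamed gene C18F10.7 and cox-5A, a subunit of cytochrome c oxidase, end in the consensus TTTCAG. In crh-1, the homologue of the CREB factor, and wip-1, which encodes a WASP-interacting protein, no AG stands there.

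The second set shows what lay under the summits, from 50 bases before to 50 bases after the summit, read on the gene's strand. Capitals mark runs of at least 3 GA or TC units, and the letters GAGACGCAG or their reverse complement CTGCGTCTC.
arid-1, chrV:185839-185939, plus strand: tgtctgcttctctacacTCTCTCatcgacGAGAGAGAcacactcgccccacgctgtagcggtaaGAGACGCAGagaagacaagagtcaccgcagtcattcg
cnk-1, chrIII:10270865-10270965, plus strand: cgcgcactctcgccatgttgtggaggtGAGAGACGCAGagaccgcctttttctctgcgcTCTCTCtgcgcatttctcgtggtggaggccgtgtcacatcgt
C18F10.7, chrIII:6278573-6278673, minus strand: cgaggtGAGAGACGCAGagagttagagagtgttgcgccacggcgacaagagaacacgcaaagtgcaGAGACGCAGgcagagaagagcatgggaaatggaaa
umps-1, chrIII:10357928-10358028, minus strand: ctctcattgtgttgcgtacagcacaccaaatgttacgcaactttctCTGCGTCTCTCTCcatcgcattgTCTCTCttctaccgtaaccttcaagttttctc
crh-1, chrIII:11657365-11657465, plus strand: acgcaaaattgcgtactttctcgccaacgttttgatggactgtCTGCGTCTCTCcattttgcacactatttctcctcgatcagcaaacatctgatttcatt
nhr-1, chrX:17513684-17513784, plus strand: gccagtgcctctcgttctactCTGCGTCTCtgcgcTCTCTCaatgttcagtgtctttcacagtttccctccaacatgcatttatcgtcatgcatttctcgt
These 6 windows were chosen for holding the marked letters, and 274 of the 496 windows hold neither of them. The windows of arid-1, an ARID-domain gene, and nhr-1, a nuclear hormone receptor, hold both kinds of mark apart from each other. In cnk-1, a scaffold of Ras signalling, and umps-1, the enzyme that makes UMP, the marked letters overlap.

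The last sequence gives 1 promoter in full, from 20 bases beyond the summit at rpl-29 to its 5′ end. The first capital is the summit base and the last 6 capitals stand directly before the end.
rpl-29, chrIV:13881926-13882224, plus strand: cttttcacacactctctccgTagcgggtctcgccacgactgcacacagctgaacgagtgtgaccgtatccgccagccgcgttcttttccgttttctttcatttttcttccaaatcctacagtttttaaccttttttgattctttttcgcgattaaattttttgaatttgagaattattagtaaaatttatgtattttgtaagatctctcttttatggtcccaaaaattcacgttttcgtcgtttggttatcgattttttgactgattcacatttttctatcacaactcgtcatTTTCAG
The window around the rpl-29 summit is 55.4% G or C, and the stretch that follows is mostly A and T up to the acceptor letters.

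The 5′ ends near these peaks followed AG about as often as not, a share above that of annotated ends in general. Of the 496 peaks, 253 (51.01%) had AG directly before the nearest 5′ end, against 26.3% of all 29784 protein-coding 5′ ends. The 346 upstream promoter peaks of replicate 1's own list gave 48.3% and the 638 of replicate 2's own list 52.4%, or 50.3% ± 2.89 (SD, n = 2). The full consensus TTTCAG stood before 134 ends (27.02%), against 11.5% of all ends, and the replicates' lists gave 26.5% ± 0.670 (SD, n = 2). The next most frequent hexamers were TTCCAG with 33 ends (6.65%, against 2.87% of all ends) and TTGCAG with 21 (4.23%, against 1.94%). AG that ended at any of the 9 bases further upstream was found in 0.806% to 2.62% of these ends. As the first letters of the annotated message itself, AG was found at 11.3% of these ends, against 9.89% of all ends. Genes and peaks are not replicates and there is only 1 group, so no test was made of any share. Each is set beside the spread between the replicates' own lists.

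**Figure D1:**
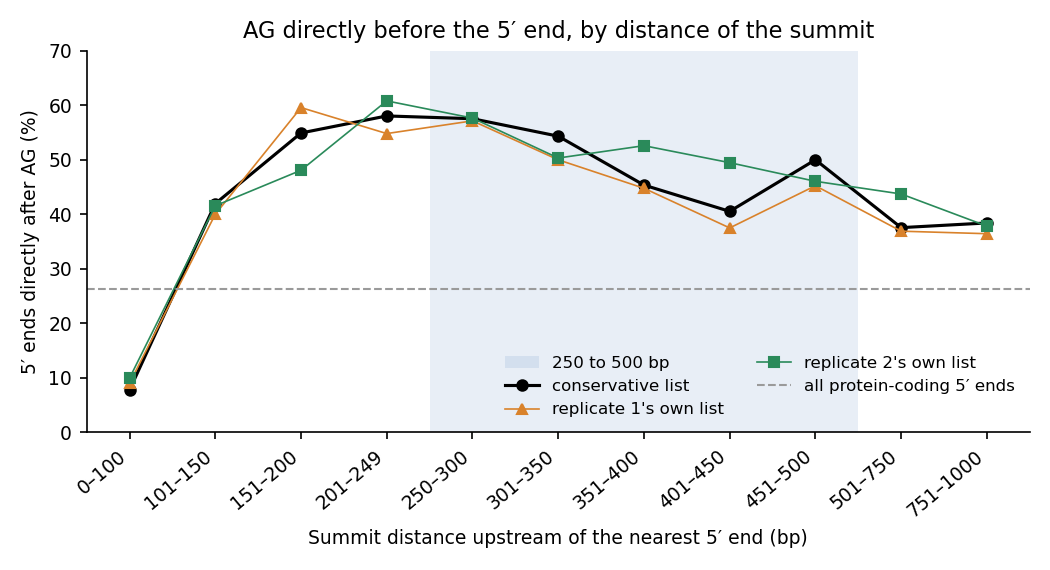
Share of 5′ ends directly after AG (%, y axis) by the distance of the summit upstream of the nearest 5′ end (bp, x axis), for peaks outside divergent promoters. Black circles show the conservative list, triangles and squares the lists of replicates 1 and 2, and the dashed line all protein-coding 5′ ends (26.3%). In the shaded range of 250 to 500 bp every point lies above the dashed line, and at 0 to 100 bp every point lies below it.

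The share depended on the distance of the summit, and it was as high just inside the 250 bp limit as just outside it. It was 57.5% for summits 250 to 300 bp upstream (84 of 146), 54.3% at 301 to 350 bp, 45.4% at 351 to 400 bp, 40.5% at 401 to 450 bp, and 26 of 52 ends beyond 450 bp. At core promoters it was 35.2% over all distances (replicates 34.6% ± 2.06, SD, n = 2). AG was least frequent at the nearest summits: only 20 of 257 (7.78%) of those 0 to 100 bp upstream had it. The core promoter class also holds summits up to 100 bp downstream, whose share is not given separately. Core summits more than 100 bp upstream had AG before 251 of 490 ends (51.2%, replicates 51.04% ± 2.27, SD, n = 2), which is within the replicate spread of the upstream promoter value. Beyond 500 bp the share was 37.6% at 501 to 750 bp and 38.4% at 751 to 1000 bp. The replicates' lists kept this shape, with 18 of 200 and 40 of 402 ends at 0 to 100 bp and 57.1% and 57.7% at 250 to 300 bp.

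Where an upstream promoter peak had AG at its gene, the annotated leader of the message was short. The median 5′ UTR was 7 bp (quartiles 3 and 20) over 252 peaks with AG, against 21 bp (4.5 and 96) over 243 without. Among all annotated ends the medians were 8 bp after AG and 17 bp elsewhere, so the same order held in the annotation as a whole.

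The AG share was lower where the summit lay inside a gene's own transcripts. It was 53.3% over the 364 summits between genes, and 31.7% (20 of 63) over those inside their own gene, where the end belongs to an inner transcript start. In 4 equal groups of 124 members by signal, AG preceded 73 ends in the strongest, then 57, 62 and 61 in the weakest. Members found in both replicates had AG in 50.3% of 314 cases, and the remaining 182 in 52.2%. Across chromosomes it ran from 45.3% on V to 55.7% on II.

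Summits thinned out with distance inside the range. The median summit offset was -341.5 bp, with quartiles of -402.25 and -294 bp. The nearer part of the range, up to 375 bp, held 324 summits and the further part 172. The replicates' own lists had medians of -347 and -342 bp. The edges of the range mark no gap in the data. At the far edge, sor-1, a Polycomb-like repressor, and epn-1, the endocytic adaptor epsin, lay inside at -500 and -499 bp, and sin-3, the scaffold of a histone deacetylase complex, and pfkb-1.2 lay outside at -502 and -503 bp. At the near edge, T01C3.3 and pes-4 lay inside at -250 bp, and rps-17, a ribosomal protein gene, and gln-5, a glutamine synthetase, lay outside at -249 bp. The signals of these 8 peaks ran from 151 to 1164.

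**Figure D2:**
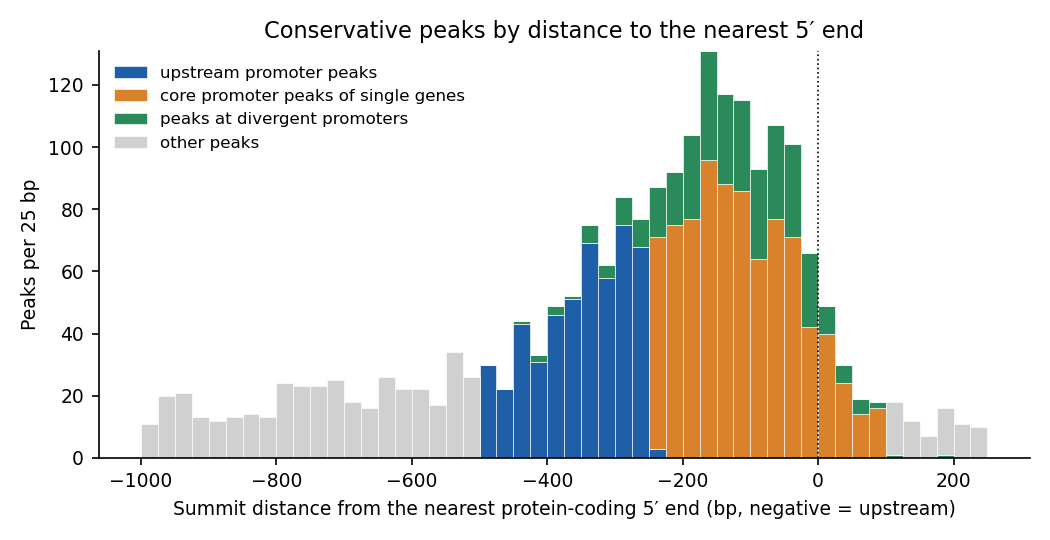
Number of conservative peaks per 25 bp (y axis) by the signed distance of the summit from the nearest protein-coding 5′ end (bp, x axis, negative upstream), stacked by class. The 496 upstream promoter peaks, in blue, fall off from 250 to 500 bp with no break at either edge, and members exactly 250 bp upstream share a bar with core promoter peaks.

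Most of these summits lay between annotated genes. The rule favours such places, since it asks for a summit upstream of its nearest coding 5′ end. No share of other peaks is set beside the shares below. Between genes were 364 (73.4%, replicates' lists 74.4% ± 1.04, SD, n = 2), inside the nearest gene itself 63 (12.7%), inside a non-coding gene 42 (8.47%), and inside another protein-coding gene 18 on the same strand and 9 on the opposite one. Of the 433 members outside their own gene, the next protein-coding gene upstream was on the same strand for 229 and on the opposite strand for 204. The space between the genes had a median of 807 bp for a neighbour on the same strand and 2243 bp for one on the opposite strand, where closer pairs had been left out by the rule on both strands. Of the 490 genes, 32 (6.53%) also had a core promoter summit, against 4.05% of all protein-coding genes. There were 6 genes with more than 1 upstream promoter peak, among them pgl-3, a germ granule component, and the myosin gene myo-6, and 8 of the 496 peaks overlapped another member.

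The peaks were of ordinary strength. Their signal, the authors' own value per peak on a scale that is not stated, had a median of 266 and ran from 2.56 to 4705, against a median of 240 over the conservative list. The upper part of the list by signal, above its median, held 55.2% of upstream promoter peaks (replicates' lists 54.4% ± 0.464, SD, n = 2) and 49.2% of core promoter peaks (48.4% ± 0.380). Of the 100 peaks with the highest signal, 13 were upstream promoter peaks. Their median width was 310.5 bp, against 330 bp in the list as a whole.

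Replicate 2's list held more of these peaks than replicate 1's, as it did of the conservative list as a whole. The thresholded lists held 5333 peaks in replicate 2 and 3340 in replicate 1. A thresholded peak of replicate 1 overlapped 330 members (66.5%, against 68.6% of the whole conservative list). One of replicate 2 overlapped 461 (92.9%, against 90.5%). Both replicates had 314 (63.3%, against 63.6% of the whole conservative list), replicate 2 alone had 147, replicate 1 alone 16, and 19 had neither. Members with both had a median signal of 397, those with replicate 2 alone 152, those with replicate 1 alone 118 and those with neither 92.2. In the authors' ranked lists, which run to weaker peaks, 487 of the 496 were matched in both replicates. Those lists hold 39515 peaks in replicate 1 and 27035 in replicate 2, and 1 bp of overlap counted. The conservative list was itself made over both replicates, so this match is no independent measure of their agreement. Where both replicates had a thresholded peak, the summits were a median of 12 bp apart, and 279 of 314 (88.9%) were within 50 bp. Signals of these 314 had a Spearman rho of 0.612 between replicates, a description across sites that share their libraries.

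**Figure D3:**
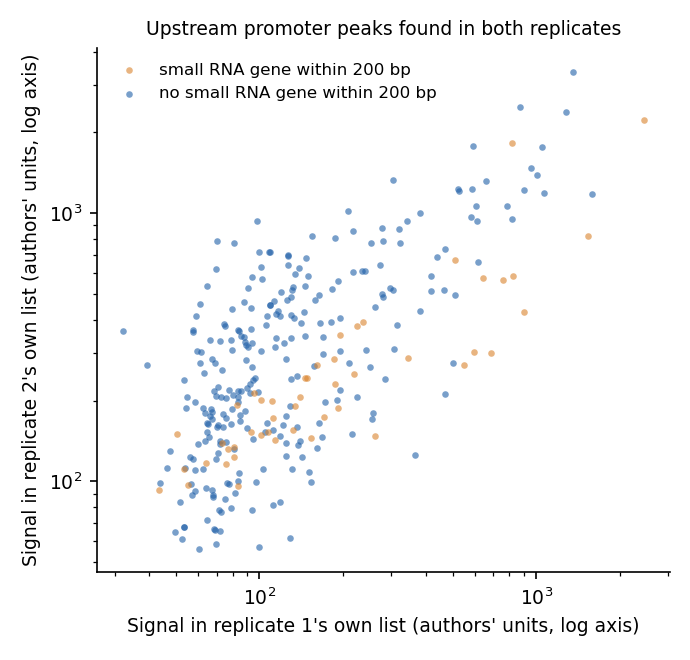
Signal in replicate 1's own list (x axis) against signal in replicate 2's own list (y axis), both in the authors' units on log axes, for the 314 upstream promoter peaks found in both. Points rise together with wide scatter (Spearman rho 0.612), and the points near a small RNA gene, in orange, have the higher median in replicate 1 (148 against 102 for the other points) and the lower one in replicate 2 (200.3 against 277).

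The 20 peaks with the highest conservative signal among those found in both replicates ranked from 1 to 196 in replicate 1's list and from 3 to 262 in replicate 2's. The peak at mog-4 (WBGene00003392, chrII:14561669-14562050, summit 260 bp upstream) had a signal of 1354 in replicate 1, rank 35 of its list, and 3372 in replicate 2, rank 3. It ranked 6 in the conservative list. The peak at pcyt-2.1 (chrI:2084768-2085177), which encodes an enzyme of phosphatidylethanolamine synthesis, had 2445 in replicate 1, rank 1, and 2231 in replicate 2, rank 16, but it lay inside the gene and within 200 bp of a snoRNA gene. Both peaks were strong in both replicates, with their order reversed between them.

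The next peaks by signal included 3 at genes of chromatin and transcription. At hat-1, a histone acetyltransferase (chrIII:10407326-10407680, 263 bp upstream), the signal was 1280 in replicate 1, rank 42, and 2378 in replicate 2, rank 12. At lin-36 (chrIII:8020966-8021317, 269 bp upstream) it was 873 in replicate 1, rank 90, and 2481 in replicate 2, rank 9. At crh-1 (chrIII:11657253-11657600, 352 bp upstream) it was 1585 in replicate 1, rank 17, and 1181 in replicate 2, rank 133. The summits of hat-1 and lin-36 in the 2 replicates lay within 4 bp of each other, and those of crh-1 within 10 bp. The hat-1 summit lay inside another protein-coding gene on the opposite strand. Further down the same list came arid-1 and swsn-1, a subunit of the SWI/SNF remodeller, and hmg-6, which encodes an HMG-box protein and had a snoRNA gene within 200 bp. The remaining names were the ribosomal protein genes rpl-3, rpl-29 and rpl-41.2, F09G2.2 (near a snoRNA gene), ztf-7 (a zinc finger gene), icd-1 (a subunit of the nascent polypeptide-associated complex), slrp-1, umps-1, cnk-1, C18F10.7, B0205.9 and wip-1. Of these 20, 13 had AG before the 5′ end, 14 had a GA repeat in the summit window and 7 held GAGACGCAG. The summits at ztf-7 and icd-1 lay inside non-coding genes.

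Among gene groups, the cytosolic ribosomal protein genes were reached most often. Upstream promoter peaks pointed to 21 of 83 (25.3%), against 2.45% of all protein-coding genes. Replicate 1's own list gave 19 of 83 (22.9%, against 1.72% of all genes in that list) and replicate 2's 22 of 83 (26.5%, against 3.16%). Core promoter peaks pointed to 7 of the 83 (8.43%, against 4.05% of all genes) and divergent promoter peaks to 13 (15.7%, against 1.61%). None of the 21 had a small RNA gene that close (200 bp), and 20 had a thresholded peak in both replicates, with rps-8 found in replicate 2 alone. At rpl-29 (chrIV:13881795-13882105, summit 279 bp upstream) the signal was 784 in replicate 1, rank 103, and 1059 in replicate 2, rank 153. At rpl-3 (chrIII:3867418-3867731, 271 bp upstream) it was 817 in replicate 1, rank 99, and 953 in replicate 2, rank 194. The strongest, rpl-41.2, had 1045 in replicate 1, rank 65, and 1772 in replicate 2, rank 41, and the weakest, rps-8, ranked 3072 in the conservative list. Their summits lay 251 bp (rpl-13) to 436 bp (rpl-35) upstream, with a median of 317 bp.

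Nearly all of these ribosomal protein genes had acceptor letters, as the family does in general. AG preceded the end in 18 of 21 and TTTCAG in 10. The other 3 were rps-24, rpl-32 and rpl-38. Of all 83 ribosomal protein genes, 70 (84.3%) have AG before their outermost 5′ end, against 27.6% of protein-coding genes. Without the ribosomal protein genes, 235 of 475 members (49.5%) had AG, so the share over all members did not rest on this family alone. Over the 24 gene lists, AG stood before the outermost end of 6.10% (histones) to 84.3% of genes (cytosolic ribosomal proteins). It was 79.2% for respiratory chain and ATP synthase genes and 7.11% for chemoreceptors. How far the kinds of genes reached set the members' share was not tested.

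**Figure D4:**
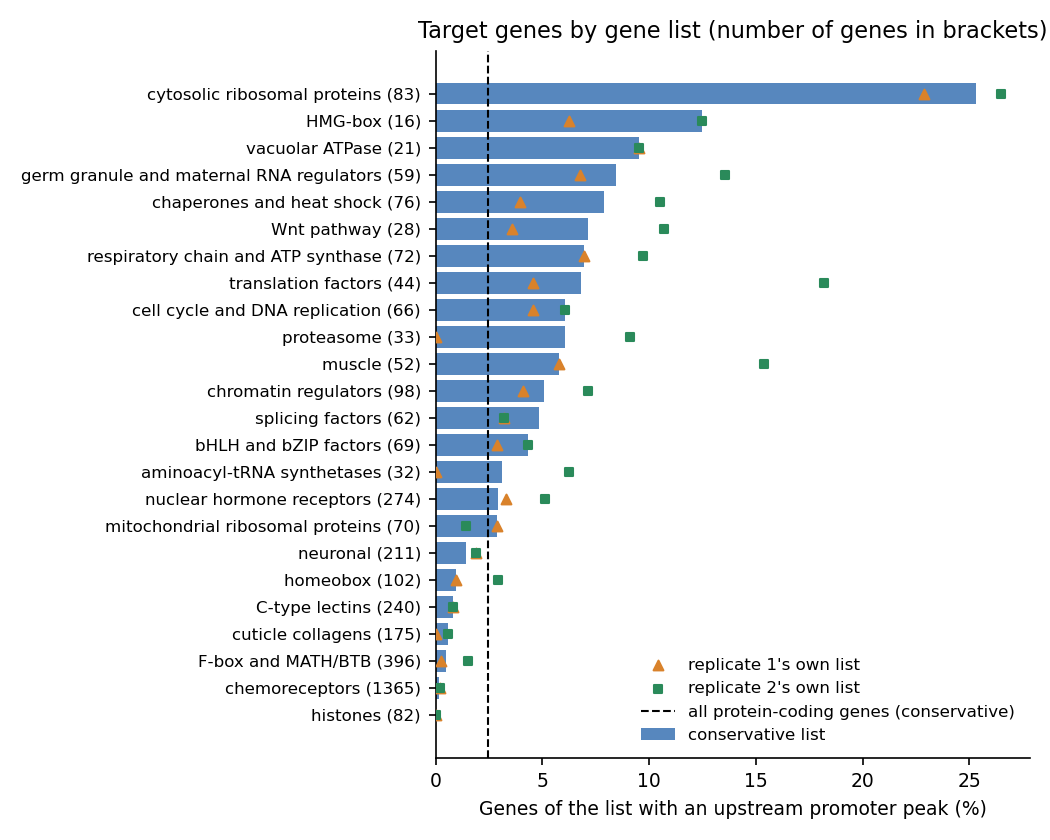
Percentage of the genes of each list that had an upstream promoter peak (x axis) in the conservative list (bars) and in the lists of replicates 1 (triangles) and 2 (squares). The dashed line is the value of all protein-coding genes (2.45%), and ribosomal protein genes stand far to its right in all 3 lists, while several other lists differ widely between the replicates.

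Other groups of broadly used genes held a few members each, to be read against the 2.45% of all protein-coding genes. Respiratory chain and ATP synthase genes had 5 of 72 (6.94%), led by cox-5A, cyc-1 (cytochrome c1) and cox-4. Chaperone genes had 6 of 76 (7.89%), led by the calreticulin gene crt-1, the constitutive Hsp70 gene hsp-1 and the protein disulfide isomerase pdi-1. Of the vacuolar ATPase subunits, 2 of 21 (9.52%) were reached, vha-12 and vha-15, with the same count in each replicate's list. Translation factors had 3 of 44 (6.82%), eef-1A.2, iff-1 and erfa-3, but 2 in replicate 1's list and 8 in replicate 2's. Proteasome genes had 2 of 33 (6.06%), splicing factors 3 of 62 (4.84%), aminoacyl-tRNA synthetases 1 of 32 (3.12%) and mitochondrial ribosomal proteins 2 of 70 (2.86%). Higher shares were not particular to upstream promoter peaks. Core promoter peaks also reached these lists above the 4.05% of all genes, except the vacuolar ATPase (0 of 21). Divergent promoter peaks reached all of them above the 1.61% of all genes. For chaperones the core share was 15.8%, and for proteasome genes the divergent share was 12.1%. Counts this small rest on single genes, and several differed between the replicates' lists by as many genes as they hold.

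Germline, cell cycle and chromatin lists also held few members, at shares above 2.45%. The lists were made by gene name, so a listed gene need not act in the process that names its list. The list of germ granule and maternal RNA regulators had 5 of 59 (8.47%), puf-9, egg-4, mex-3, oma-2 and pgl-3. It had 4 in replicate 1's list and 8 in replicate 2's. The cell cycle and replication list had 4 of 66 (6.06%), with cdk-12 and the sliding clamp gene pcn-1 strongest. Replicate 1's list gave 3 of these 66 and replicate 2's 4. The chromatin regulator list had 5 of 98 (5.10%), hat-1, swsn-1, the H3K27 demethylase utx-1, spr-4 and let-418, with 4 in replicate 1's list and 7 in replicate 2's. The Wnt pathway, in which HMG-1.2 itself has been placed by genetics, had 2 of 28 (7.14%), the β-catenin sys-1 and the Nemo-like kinase lit-1. Of the 28, replicate 1's list gave 1 and replicate 2's 3. The lit-1 summit lay inside its own gene, and no thresholded peak of replicate 1 overlapped it. HMG-box genes had 2 of 16 (12.5%), hmg-6 and hmg-1.1, a paralogue of the tagged gene, with 1 in replicate 1's list and 2 in replicate 2's. No thresholded peak of replicate 1 overlapped the one at hmg-1.1, and the one at hmg-6 lay near a snoRNA gene. Core promoter peaks also reached the lists of this paragraph above the 4.05% of all genes, except the Wnt pathway (3.57%). Divergent promoter peaks reached them above the 1.61% of all genes, except HMG-box genes (0 of 16). For chromatin regulators the core share was 14.3%.

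Several large families lay below the 2.45% of all genes. Chemoreceptors had 2 of 1365 (0.147%), F-box and MATH/BTB genes 2 of 396 (0.505%), C-type lectins 2 of 240 (0.833%), cuticle collagens 1 of 175 (0.571%), homeobox genes 1 of 102 (0.980%) and histones 0 of 82, also 0 in each replicate's list. Homeobox genes had 3 in replicate 2's list (2.94%, against 3.16% of all genes there). Core promoter peaks pointed to 5 histone genes (6.10%) and 6 homeobox genes (5.88%), against 4.05% of all genes. Divergent promoter peaks pointed to 4 histone genes (4.88%) and 2 homeobox genes (1.96%), against 1.61% of all genes. The chemoreceptor, F-box and MATH/BTB, lectin and collagen lists lay below all genes in both classes. Upstream promoter peaks pointed to 3 of 211 neuronal genes (1.42%). Muscle genes, at 3 of 52 (5.77%), lay above, among them pat-4 (integrin-linked kinase) and unc-112 (kindlin), with 3 muscle genes in replicate 1's list and 8 in replicate 2's. Nuclear hormone receptors had 8 of 274 (2.92%), led by nhr-277, nhr-65 and nhr-1. All 8 of these receptor summits held a GA repeat, whereas AG preceded the 5′ end in 1 of 8. This detail was chosen after its values were seen. In the receptor family as a whole, AG stands before the outermost 5′ end of 65 of 274 genes (23.7%, against 27.6% of protein-coding genes).

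The DNA under the summits was richer in G and C than promoters of genes without a peak at the same distances. From 50 bp before to 50 bp after the summit the members averaged 48.3% G or C (SD 7.95 over 496 windows; replicates' lists 48.4% ± 0.712, SD, n = 2), against 34.1% at 18038 genes without a peak. The rest of the conservative list averaged 48.6%, so this is a property of the peaks in general. The excess was narrow. It reached 50.5% in the 10 bp at the summit and had fallen to within 1 percentage point of genes without a peak at 130 bp on either side. Toward the gene the composition changed to T: between the summit and the 5′ end, T made up 38.1% of the gene's strand, against 35.8% over the same stretch in genes without a peak. Beyond the summit over the same length it made up 33.8%, against 33.4%.

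**Figure D5:**
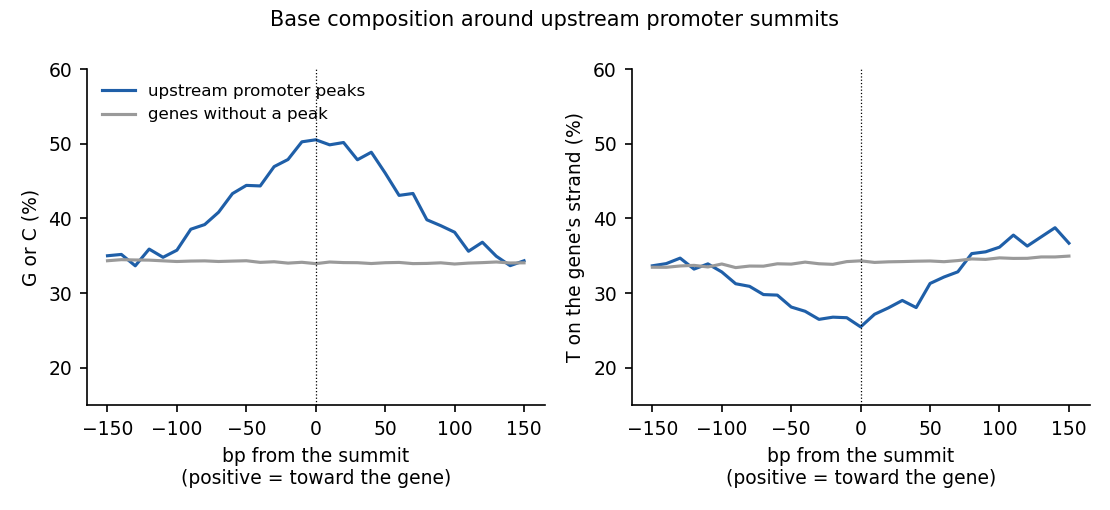
Share of G or C (left) and of T on the gene's strand (right), in percent on the y axes, in 10 bp bins from 150 bp beyond the summit to 150 bp toward the gene (x axes). The blue line is the mean of the 496 upstream promoter windows and the grey line that of 18038 genes without a peak. The blue G or C line peaks at the summit, and the blue T line dips there and passes the grey line toward the gene.

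GA repeats were the most frequent of the 16 motifs searched. The letters GAGAGA or TCTCTC were in 185 of the 496 windows (37.3%; 32.7% in replicate 1's list and 37.6% in replicate 2's), against 5.69% of windows at genes without a peak. In all 19973 promoter windows of the same length, centred 342 bp upstream, the share was 5.95%. The TC form stood on the gene's strand in 121 members (24.4%) and the GA form in 75 (15.1%). Genes without a peak had the same order, with 3.68% for TC and 2.05% for GA. Runs were short, with a median of 7 bp and a longest of 66 bp, and 152 of 246 (61.8%) lay within 25 bp of the summit. In the groups of 124 members by signal, 68 of the strongest had it, then 60, 31 and 26 of the weakest. In the rest of the conservative list it was 37.2%, and at core promoters 36.6%. At divergent promoters it was 25.2% (replicates 25.9% ± 0.642, SD, n = 2), against 35.1% ± 3.51 in the upstream promoter lists.

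A 9-letter stretch, chosen after the windows had been read, was rare at genes without a peak. GAGACGCAG or CTGCGTCTC was in 103 of 496 windows (20.8%; 18.5% in replicate 1's list and 21.9% in replicate 2's). Of the windows at genes without a peak, 70 of 18038 (0.388%) held it, and of all promoter windows 0.681%. There were 111 copies, 89 of them within 25 bp of the summit, and 66 read CTGCGTCTC on the gene's strand while 45 read GAGACGCAG. The 9 letters begin with GAGA and can run into a GA repeat, and 66 members held both. It was in 38 of the 124 strongest members and in 9 of the 124 weakest. The rest of the conservative list held it in 22.9% of windows, and its peaks in no promoter class in 24.5%. Divergent promoters, at 11.4% (replicates 12.8% ± 2.83, SD, n = 2), lay below the upstream promoter lists at 20.2% ± 2.44. The nuclear genome holds 4419 copies, and 1271 (28.8%) overlap a conservative peak. The letters were chosen from windows of these same peaks, and the share of the genome under conservative peaks was not computed. This overlap therefore has no baseline.

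Several motifs with many A and T letters were less frequent at the summits than at genes without a peak. A run of TTTTTT was in 16.9% of members against 45.2%, the CHR letters TTTGAA in 10.69% against 30.2%, the GATA letters TGATAA in 3.43% against 10.4% and TATAAA in 4.23% against 13.1%. The acceptor letters TTTCAG were in 6.65% of summit windows against 18.5%. The forkhead letters GTAAACA went the other way, in 2.62% against 1.36%. Letters rich in C were more frequent, with CTCCCC in 7.66% against 1.83% and CCGCCC in 5.44% against 1.70%. Of the letters that other HMG-box factors are known to read, those of TCF (CTTTGA) were in 5.65% against 8.33% and those of SOX (ACAATG) in 6.45% against 6.004%. The SOX order held in the conservative list alone, since the lists of replicates 1 and 2 gave 5.78% and 5.64%. All letters were searched on both strands. These motifs differ in base composition as the windows do, a match is not a binding site, and the part of composition in these shares was not tested.

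Some of the members stood beside a small RNA gene, and AG was less frequent at their coding genes. Within 200 bp of a tRNA, snoRNA, snRNA or miRNA gene lay 58 members (11.7%), against 14.9% of the conservative list and 3.94% of core promoter peaks. Of these, 39 were near tRNA genes, 11 near snoRNA, 6 near snRNA and 2 near miRNA genes. The 39 summits near tRNA genes had a median place 15 bp upstream of the tRNA 5′ end, with 38 within 100 bp of it, while they were a median of 376 bp from the coding 5′ end. The share differed between the replicates' lists, with 55 of 346 (15.9%) in replicate 1 and 55 of 638 (8.62%) in replicate 2. AG preceded the coding 5′ end in 8 of the 58 (13.8%), below the share of all ends, and in 245 of the 438 other members (55.9%). A GA repeat was in 22.4% of the 58 and 39.3% of the other members, and the 9 letters in 6.90% against 22.6%.

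Target genes were spread over all 6 nuclear chromosomes. They made up 3.27% of protein-coding genes on chromosome I, 2.26% on II, 3.33% on III, 2.35% on IV, 1.46% on V and 2.93% on X. Of the conservative peaks on each chromosome, members were 12.7% on I, 12.2% on II and 10.8% on III. On IV they were 10.74%, on V 12.2% and on X 13.5%. Chromosome III, highest by genes, was thus not highest by peaks, and it held 823 conservative peaks against 613 on V. Chromosome III had the highest share of members with the 9 letters (32.6%) and X the lowest (11.1%), with 89 and 81 members. No share of the 9 letters over all conservative peaks of a chromosome is set beside these.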

How the data were processed

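Peak lists from 2 ChIP-seq replicates were analysed as deposited, on ce11 per the labels, and no peak ran past a chromosome's end in the WBcel235 genome read here. The deposited score of each peak is the authors' IDR score, a measure of how well its rank is kept between lists, and is capped at 1000. The deposited signal is the authors' own value, in units that no source gives, and was compared only within 1 list. The aligner and peak caller used, and the depth, were not given in the sources used here.

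Summits came from the deposited offset. Distances used every protein-coding 5′ end of Ensembl release 115. Overlap needed 1 bp. Sequence was read 50 bp either side of summits. Each window at a gene without a peak was placed at the distance of a member. Python 3.11.15, NumPy 2.4.6 and SciPy 1.17.1 were used, and the functions were tested on simulated data.

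Named genes are those of the 20 members with the highest signal found in both replicates, up to 3 per list, the peaks nearest the edges and genes with several members. Further list members were named after their values were seen. The members, the 24 gene lists and the 16 motifs were chosen with earlier results of these data known. The alternatives were the authors' other list, each replicate alone, stronger peaks, outermost 5′ ends, no peaks near small RNA genes, stricter overlap, ranked lists and other windows. Peaks are not replicates, so values carry no p.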

Additional observations from a re-analysis of the deposited data

How the results depend on the processing

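With each replicate's own list in place of the conservative one, the median summit offset ran from -347 to -342 bp, the share between genes from 73.7% to 75.1% and the GA repeat share from 32.7% to 37.6%. Conservative peaks above the list's median signal (274 members) gave 49.6% G or C, a GA repeat share of 48.5% and a 9-letter share of 27.01%. The other thresholded list gave 47.2% G or C. Without peaks near small RNA genes (0 left by construction), AG preceded 55.9% of ends and 76.7% of summits lay between genes, and with outermost 5′ ends only 82.5% did. Against the ranked lists, which are far longer, 98.2% of members were matched in both replicates. Windows of 25 and 100 bp either side of the summit gave 49.7% and 44.6% G or C, GA repeat shares of 23.6% and 46.6%, and 9-letter shares of 15.7% and 23.4%, as a longer window holds more letters around the same centre. For the other changes the cause was not tested. Alternatives for the GA repeat and 9-letter shares were chosen after seeing the data. The AG share stayed above the 26.3% of all ends under every alternative run on it. No paired analysis was possible because both samples belong to 1 group. Depth is unknown, so whether weaker peaks were missed in replicate 1 cannot be told.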
